A study of Saccharomyces cerevisiae with 40 samples.

Results

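Translational efficiency, the ribosome footprints of a gene relative to its RNA, was described across the genes of wild-type (WT) budding yeast. The members were the genes with a mean of at least 50 counts in both the 3 WT footprint libraries and the 3 WT input RNA libraries, and they were 4643 of the 6613 genes listed in both tables. All strains were Saccharomyces cerevisiae of the W303 background, grown in rich glucose medium (YPD) to log phase. For ribosome profiling, cells of WT, of a strain with DEF1 deleted (def1Δ) and of a strain labelled as having DHH1 deleted (dhh1Δ) were treated with cycloheximide at 50 µg/ml and frozen. Lysates were either extracted for total RNA (the input) or digested with RNase I, and the footprints were taken from the monosome fraction of a sucrose gradient. Steady-state total RNA came from separate WT cultures that received no cycloheximide. The footprint columns of a strain are barcoded replicates of a pooled library, and the labels do not say whether they came from separate cultures, so the p-values measure the spread between these libraries, which may be technical.

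In eukaryotes the small ribosomal subunit binds near the cap of an mRNA and scans to a start codon, and in yeast an adenine at position −3 from that codon is the most common context. Each ribosome that then elongates protects a short fragment from nuclease, so footprints per RNA follow how often an mRNA is initiated and how long its ribosomes stay on it. Short upstream open reading frames can hold ribosomes back from the main frame, as in the classic case of GCN4, the activator of amino acid synthesis genes. Growing yeast devotes much of its protein synthesis to ribosomal proteins and glycolytic enzymes.

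For each gene the log2 of its CPM (its count, with 0.5 added, as a share of the library total) was averaged over the libraries of a kind, the input mean was subtracted from the footprint mean, and the value of the median gene was set to 0. A gene was called when the edgeR quasi-likelihood test of that ratio against the median gene gave a Benjamini-Hochberg adjusted p under 0.01 and the ratio was more than 2-fold from it. The WT input libraries held 14894073 to 30830844 counts and the footprint libraries 5169405 to 8635312. Replicates correlated at Pearson r of 0.974 to 0.978 for input and 0.979 to 0.988 for footprints across the genes tested, which are not independent replicates. Input RNA of DEF1 stood at 744 to 1028 CPM in WT and was nearly absent in def1Δ, at 4.53 to 7.21 CPM. DHH1 was lower but not absent in the libraries labelled dhh1Δ, with 71.2 to 88.1 CPM of input and 24.6 to 31.2 CPM of footprints, against 211 to 316 CPM and 211 to 227 CPM in WT. In WT the translational efficiency of DEF1 and DHH1 was 0.93 ± 0.16 and 0.68 ± 0.18 (SE, n = 3 and 3), not called.

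The sequence around the start codon is shown for the 6 highest and the 6 lowest of the named genes, for GCN4, and for YOR302W, a short frame annotated just upstream of CPA1 that is discussed with it. Each run holds 12 bases before and 12 bases from the start of the coding sequence in RefSeq R64, and capitals mark the base at position −3 and the ATG.
CCW12, chrXII:370087-370110, minus strand: actatatcaAtaATGcaattttct
THR4, chrIII:216685-216708, plus strand: tccctcacaCcaATGcctaacgct
RPL39, chrX:75921-75944, plus strand: agatagatcAacATGgctgtatgt
TDH1, chrX:338259-338282, plus strand: acacaaaacAaaATGatcagaatt
SNU13, chrV:101931-101954, plus strand: actatattaAaaATGtctgcccca
ANB1, chrX:525370-525393, minus strand: acacactaaAacATGtctgacgaa
HFA1, chrXIII:683553-683576, minus strand: gcggtgaaaGaaATGagatctata
CSF1, chrXII:315720-315743, minus strand: aagttagcaAgcATGgaagctatt
VMR1, chrVIII:32745-32768, minus strand: ctacctcggAgaATGggaacggat
TEL1, chrII:59371-59394, minus strand: gtaacatagAcgATGgaggatcat
DYN1, chrXI:547914-547937, minus strand: gttttttagGcaATGtgcaagaat
PPS1, chrII:760032-760055, minus strand: agagcaacaAccATGgttttggaa
GCN4, chrV:139752-139775, minus strand: aatacaaatAaaATGtccgaatat
YOR302W, chrXV:882753-882776, plus strand: aaaaaacatTatATGtttagctta
Among the 6 highest, THR4 alone lacked A at −3, and among the 6 lowest HFA1 and DYN1 lacked it. Over all genes 62.8% had A there. The genes shown are too few, and were picked by their ratios, so no difference in context is read from them.

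Translational efficiency in WT ran from −4.13 to 7.51 on the log2 scale, and the 5th and 95th percentiles, −1.66 and 2.25, lay 15.0-fold apart. Against the median gene, 904 genes were higher (19.5% of those tested) and 729 were lower (15.7%), while 3010 were not called. The median SE of a gene was 0.19, and in 69.9% of genes the footprint and input libraries did not overlap once the median gene was set to 0. The plot of footprints against input RNA shows the called genes on both sides of a common diagonal. Footprints were more concentrated than the input RNA: the 10 genes with the most counts took 15.3% of footprints but 7.06% of input, and the top 100 took 42.5% and 24.6%. These shares were not taken for steady-state RNA. In it CCW12 and TDH3 had means of 43882 and 46327 CPM, above their footprint means of 12868 and 19355 CPM.

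**Figure D1:**
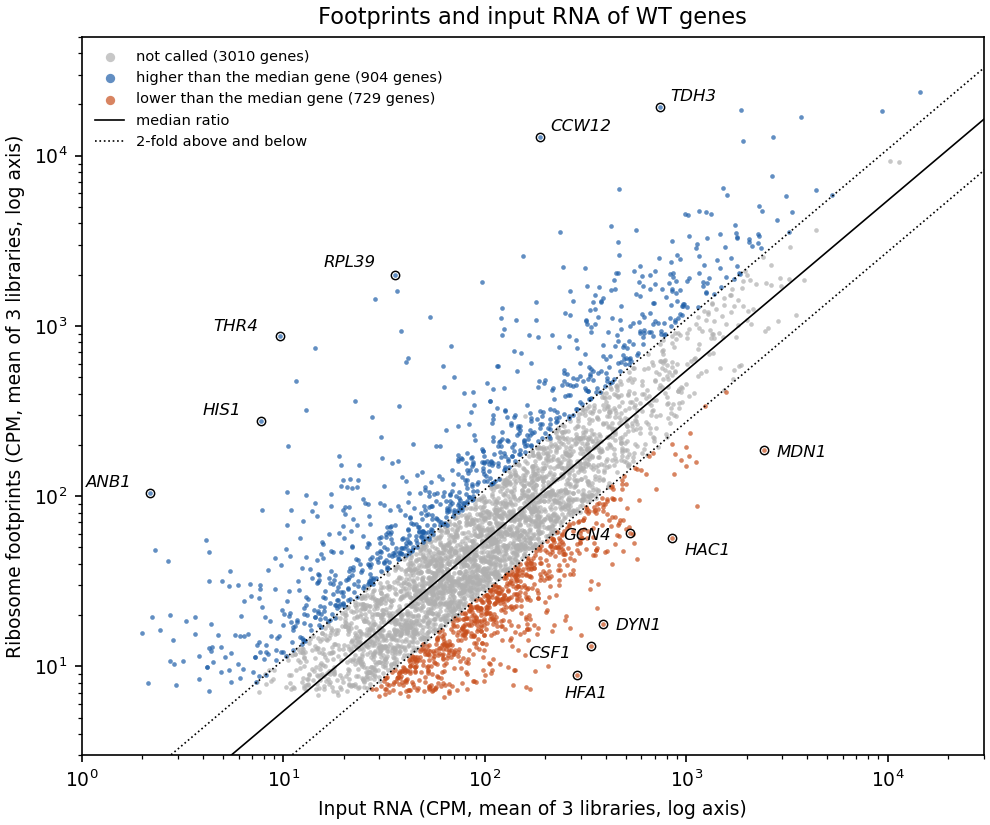
Mean footprint CPM against mean input RNA CPM of the 4643 genes in WT, both on log axes, with genes higher than the median gene in blue (904), lower in orange (729) and not called in grey (3010). The solid line is the median ratio and the dotted lines are 2-fold from it. CCW12, TDH3, THR4, RPL39, HIS1 and ANB1 lie far above the line, and HFA1, CSF1, DYN1, GCN4, HAC1 and MDN1 below it.

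The 10 highest nuclear genes by the naming rule were CCW12, THR4, RPL39, TDH1, SNU13, ANB1, SRL1, RPL21A, TDH3 and HIS1, with translational efficiency from 6.05 to 7.51. They encode 2 ribosomal proteins, 2 forms of glyceraldehyde-3-phosphate dehydrogenase, 2 amino acid enzymes and 2 mannoproteins of the cell surface, besides SNU13, an RNA-binding protein of small nucleolar and spliceosomal particles, and ANB1, the form of the factor eIF5A made in low oxygen. Their coding sequences were 156 to 1545 bases long.

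CCW12, a cell wall mannoprotein on chromosome XII (369697 to 370098, minus strand), had 75.9, 422 and 67.0 CPM in the input libraries and 12956, 12904 and 12744 CPM in the footprint libraries. Its footprints were nearly level between libraries while input library 2 stood apart, and its translational efficiency was 7.51 ± 0.86 (SE, n = 3 and 3, adjusted p = 2.74e-08). TDH3, the main glyceraldehyde-3-phosphate dehydrogenase, had the same outlying input library, with 197, 1643 and 373 CPM against 17894 to 21425 CPM of footprints.

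THR4, threonine synthase (chromosome III, 216697 to 218241, plus strand), was tighter, with 8.73, 9.94 and 10.2 CPM of input and 870, 854 and 906 CPM of footprints. No library of THR4 overlapped between the kinds, and its translational efficiency was 7.38 ± 0.07 (SE, n = 3 and 3, adjusted p = 2.13e-13). ANB1 was low in RNA, at 1.75, 3.32 and 1.48 CPM of input, and had 89.8, 118 and 105 CPM of footprints, for a translational efficiency of 6.52 ± 0.37 (SE, n = 3 and 3, adjusted p = 7.93e-12). RPL39, a small protein of the large ribosomal subunit, had 29.3, 52.3 and 25.6 CPM of input and 1544, 2565 and 1845 CPM of footprints, for 6.71 ± 0.38 (SE, n = 3 and 3, adjusted p = 4.02e-11).

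For most of these 10 genes the input RNA was far below the steady-state RNA of WT. CCW12 stood at 50046 and 37718 CPM in the 2 steady-state libraries, 233-fold its mean in the input, and SRL1, TDH3, SNU13 and THR4 were 338-fold, 62.8-fold, 60.5-fold and 46.4-fold above theirs. For ANB1 the steady-state mean was 1.75-fold the input mean, and for RPL39 it was 8.54-fold. With steady-state RNA as the denominator, which gives a value with no test, translational efficiency was −2.24 for CCW12, −3.52 for SRL1, −1.75 for TDH3, −0.76 for SNU13 and −0.046 for HIS1. It stayed positive for ANB1 (4.26), RPL39 (2.22), TDH1 (0.72), THR4 (0.50) and RPL21A (0.11). The input and the steady-state libraries differ in culture, cycloheximide, extraction and counting, and these cannot be told apart. TDH1, TDH3 and RPL21A also share sequence with close copies. Of the 28-base windows of their coding sequences, 71.2%, 52.8% and 72.6% occurred only at that place in the genome, so reads may have been split or dropped. For ANB1 the share was 91.3%, so some of its windows also occur elsewhere, and its input rested on 54, 95 and 22 counts. Whether its reads were assigned to the right gene was not tested.

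The same comparison was made over all calls. Of 903 genes called higher that have steady-state counts, 336 were also more than 2-fold above the median gene with steady-state RNA as the denominator and 318 (35.2%) were at or below it. Of the 729 called lower, 346 were also more than 2-fold below and 160 (21.9%) were at or above it. Both ratios share the footprint libraries, so this is no independent repeat of the measurement. The same shares over all genes tested were not taken with this denominator. These counts, and those given for the lists below, therefore have no background share beside them.

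**Figure D2:**
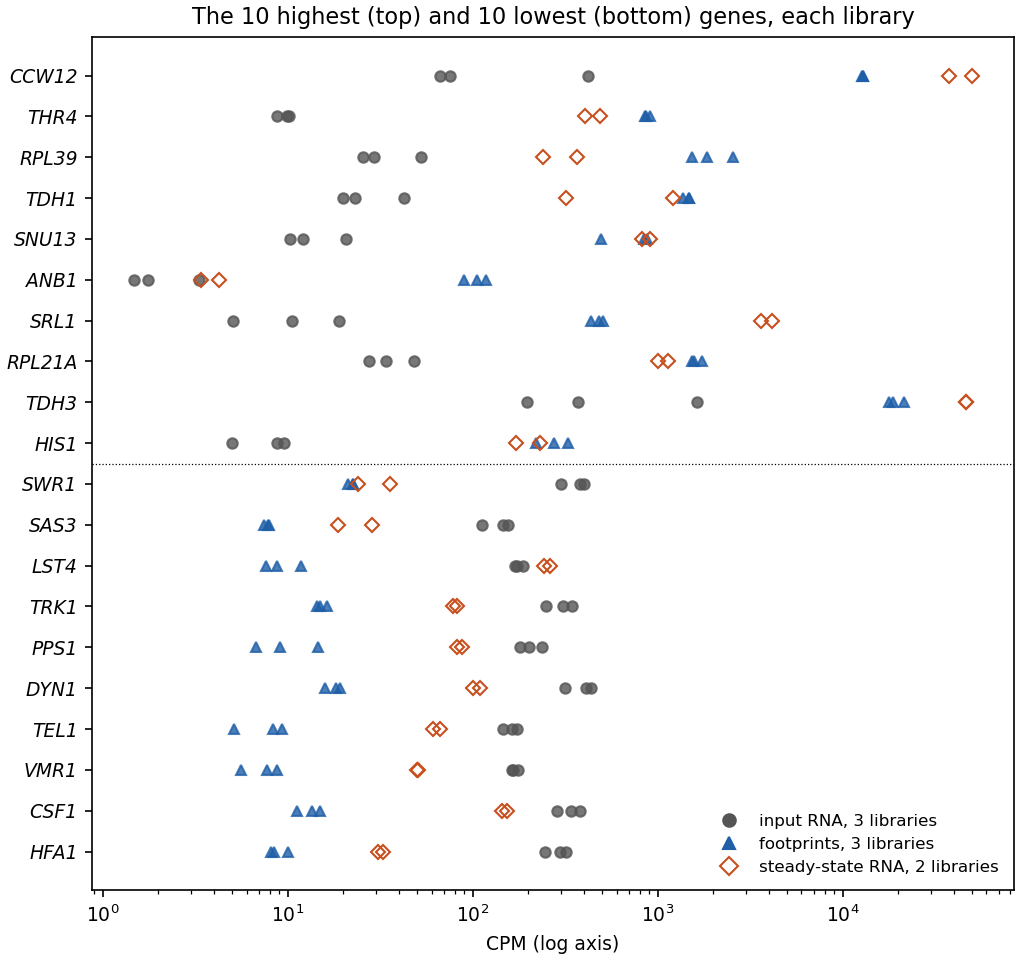
CPM (log axis) in each library for the 10 highest genes (above the dotted line) and the 10 lowest (below it), with input RNA as grey circles, footprints as blue triangles and WT steady-state RNA as open orange diamonds. Steady-state RNA of CCW12, SRL1 and TDH3 lies to the right of their footprints while their input RNA lies far to the left. In each of the lowest 10 genes the footprints lie to the left of both kinds of RNA.

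The 10 lowest genes were HFA1, CSF1, VMR1, TEL1, DYN1, PPS1, TRK1, LST4, SAS3 and SWR1, with translational efficiency from −4.13 to −3.14, and they were mostly long, with a median coding length of 4662 bases. In all 10 at least 90% of 28-base windows occurred only at that place in the genome. HFA1, the mitochondrial acetyl-CoA carboxylase (chromosome XIII), had 297, 247 and 319 CPM of input and 8.12, 8.45 and 9.98 CPM of footprints. Its translational efficiency was −4.13 ± 0.14 (SE, n = 3 and 3, adjusted p = 2.92e-11).

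TEL1, the checkpoint kinase related to human ATM, had 164, 146 and 173 CPM of input and 9.29, 5.10 and 8.36 CPM of footprints, for −3.56 ± 0.28 (SE, n = 3 and 3, adjusted p = 5.31e-10). DYN1, the dynein heavy chain and with 12279 bases the longest of them, had 409, 314 and 435 CPM of input and 19.2, 18.3 and 15.8 CPM of footprints, for −3.55 ± 0.17 (SE, n = 3 and 3, adjusted p = 1.2e-10). In both genes every footprint library was far under every input library.

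VMR1, a vacuolar transporter of the ABC family, stood at −3.64 ± 0.19, TRK1, a potassium transporter, at −3.41 ± 0.15, and PPS1, a protein phosphatase, at −3.53 ± 0.34 (SE, n = 3 and 3). The chromatin genes SAS3, a histone acetyltransferase, and SWR1, the ATPase that places the histone variant H2A.Z, were at −3.25 ± 0.15 and −3.14 ± 0.13. All 10 stayed negative with steady-state RNA as the denominator, from −0.89 in SWR1 to −5.25 in LST4, although the steady-state RNA of SWR1 and HFA1 was 12.1-fold and 9.04-fold below the input.

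Cytoplasmic ribosomal protein genes were the largest group of highly occupied mRNAs. Of 137 members, all tested, 120 were higher, none was lower and 17 were not called, against 19.5% and 15.7% over all genes, and the median was 2.02. The members took 21.9%, 27.9% and 24.9% of all footprint counts and 10.5%, 15.0% and 10.8% of input counts, so the footprint and input libraries did not overlap. The median was between 1.53 and 2.38 when each input library was used alone. Many of these genes come in near-identical pairs, and the 58 members with at least 90% of windows found at that place alone had a median of 2.42. RPL39 was the highest and RPL11B, at 1472, 1491 and 1432 CPM of input against 604, 562 and 543 CPM of footprints, the lowest at −0.49 ± 0.05, not called (SE, n = 3 and 3, adjusted p = 0.0342). With steady-state RNA as the denominator the median was 0.98, and 60 of the 120 were also more than 2-fold above the median gene while 18 were at or below it.

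Genes of the glycolytic path from hexose to ethanol had the highest median of any list, 2.92. Of 20 tested members 17 were higher (85.0%, against 19.5% of all genes) and none lower. They held 16.2%, 13.8% and 14.1% of footprint counts against 3.75%, 6.38% and 3.52% of input counts. TDH1 was the highest at 6.61 ± 0.34, with 20.0, 42.7 and 23.0 CPM of input and 1476, 1365 and 1476 CPM of footprints (SE, n = 3 and 3, adjusted p = 2.58e-11). PYK2, the minor pyruvate kinase, was the lowest at −0.41 ± 0.16 and was not called (adjusted p = 0.0718). The rank of this list depended on shared sequence. Its 14 members with at least 90% of windows found at that place alone had a median of 1.77, below the 2.42 of such ribosomal protein genes. The list also turned with the denominator: with steady-state RNA its median was −0.45, and 12 of the 17 called higher were at or below the median gene.

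Genes of the other steps of translation lay above the median gene as well. Of 26 initiation factor genes 8 were higher (30.8%, against 19.5% of all genes) and none lower, with a median of 0.65. SUI1, which encodes the start-codon selecting factor eIF1, was the highest, with 84.7, 109 and 72.0 CPM of input and 323, 346 and 364 CPM of footprints, at 2.85 ± 0.18 (SE, n = 3 and 3, adjusted p = 1.85e-09). FUN12, which encodes eIF5B, was the lowest at −0.79 ± 0.31 and was not called.

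Of 12 elongation and termination factor genes tested, 4 were higher (33.3%, against 19.5% of all genes), with a median of 0.76, and ANB1 led. EFT1, which encodes elongation factor 2, stood at −0.50 ± 0.31, but 4.48% of its windows were found at that place alone, since EFT2 has nearly the same sequence. Of 22 cytosolic aminoacyl-tRNA synthetase genes 6 were higher (27.3%), with a median of 0.70. GRS1, glycyl-tRNA synthetase, had 55.1, 78.8 and 53.2 CPM of input and 618, 499 and 625 CPM of footprints, at 4.11 ± 0.21 (SE, n = 3 and 3, adjusted p = 9.49e-11). ILS1, isoleucyl-tRNA synthetase, was at −0.09 ± 0.17. Against steady-state RNA the medians of these lists were 0.87 for initiation, 0.66 for the synthetases and −0.63 for elongation and termination, and GRS1 was at −0.26.

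Ribosome biogenesis genes differed from the genes of the ribosome itself. Of 103 tested members, 10 were higher (9.71%), 9 lower (8.74%) and 84 not called, with a median of −0.09. Over all genes 19.5% were higher and 15.7% lower. NOP10, a small protein of the pseudouridylation particles, had 26.3, 40.3 and 24.8 CPM of input and 184, 231 and 249 CPM of footprints, at 3.76 ± 0.26 (SE, n = 3 and 3, adjusted p = 2.34e-10). MDN1, a giant ATPase of large-subunit maturation with a coding length of 14733 bases, had 2162, 1756 and 3361 CPM of input and 166, 147 and 244 CPM of footprints, at −2.81 ± 0.35 (SE, n = 3 and 3, adjusted p = 7.41e-08). The order of these lists depends on the denominator, since with steady-state RNA the biogenesis genes had a median of 1.26, above that of the ribosomal proteins. NOP10 was then at −1.45 and MDN1 at −2.12.

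Genes for mitochondrial function encoded in the nucleus were also more often higher than lower. Of 42 genes of the respiratory chain and ATP synthase 21 were higher (50.0%, against 19.5% of all genes) and none lower. The list median was 1.00. Its members were short, with a median coding length of 445.5 bases. Of all 584 tested genes of 301 to 600 bases, 50.0% were higher and 2.05% lower, with a median of 1.01. COX7, a small subunit of cytochrome c oxidase, had 22.8, 26.9 and 8.66 CPM of input and 90.0, 155 and 100 CPM of footprints, at 3.55 ± 0.56 (SE, n = 3 and 3, adjusted p = 4.69e-08). ATP2, the beta subunit of ATP synthase, was the lowest at −0.53 ± 0.10.

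Of 74 mitochondrial ribosomal protein genes 21 were higher (28.4%) and 1, RSM22, was lower, with a median of 0.42. Their median coding length was 690 bases, and of all genes of 601 to 900 bases 28.4% were higher, with a median of 0.46. MRPL8 had 16.7, 15.2 and 12.4 CPM of input and 45.8, 38.0 and 42.0 CPM of footprints, at 2.39 ± 0.15 (SE, n = 3 and 3, adjusted p = 2.5e-08). Of 14 tested genes of the TCA cycle 3 were higher (21.4%, near the 19.5% of all genes), led by the malate dehydrogenase gene MDH1 at 1.34 ± 0.18, with PYC1, pyruvate carboxylase, the lowest at −0.98 ± 0.10. With steady-state RNA as the denominator the medians were 0.91 for the respiratory genes, 0.70 for the mitochondrial ribosomal proteins and −0.79 for the TCA cycle, COX7 was at 2.95 and RSM22 at 0.29.

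Protein folding and turnover genes were called higher more often than lower. Of 35 proteasome genes 9 were higher (25.7%, against 19.5% of all genes) and none lower, with a median of 0.49, and of 40 tested chaperone genes 12 were higher (30.0%) and none lower, with a median of 0.67. The median coding length was 867 bases for the proteasome, and of all genes of 601 to 900 bases 28.4% were higher. For chaperones it was 1629 bases, and of all genes of 1201 to 1800 bases 11.6% were higher. RPT1, an ATPase of the proteasome base, had 62.7, 20.2 and 29.7 CPM of input and 334, 348 and 339 CPM of footprints, at 4.22 ± 0.48 (SE, n = 3 and 3, adjusted p = 5.59e-09). CPR1, the cytosolic cyclophilin, was at 5.60 ± 0.45, and SSA4, a heat-induced Hsp70, at −0.79 ± 0.50 with overlapping libraries.

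With steady-state RNA as the denominator the medians of both lists were higher, 1.43 for the proteasome and 1.07 for chaperones, RPT1 was at 2.12 and CPR1 at −0.75. Of 15 genes of the vacuolar ATPase, the proton pump of the vacuole, 5 were higher (33.3%) and 1 lower (6.67%). Over all genes the shares were 19.5% and 15.7%. The list median of 0.76 became −0.21 with steady-state RNA. VMA10 was at 3.73 ± 0.29 and STV1, the subunit isoform of the Golgi, at −1.79 ± 0.18 (SE, n = 3 and 3), and these moved to 2.68 and −2.06.

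Among biosynthetic genes, 23 of 75 tested amino acid genes were higher (30.7%, against 19.5% of all genes). GLT1 alone was lower (1.33%, against 15.7%), and the list median was 0.53. HIS1, of the path to histidine, had 5.03, 8.71 and 9.53 CPM of input and 328, 219 and 276 CPM of footprints, at 6.05 ± 0.33 (SE, n = 3 and 3, adjusted p = 8.05e-12). GLT1, glutamate synthase, had 1316, 1475 and 1953 CPM of input and 437, 365 and 433 CPM of footprints, at −1.05 ± 0.19 (SE, n = 3 and 3, adjusted p = 0.000257). Of 38 tested sterol and lipid genes 14 were higher (36.8%) and 3 lower (7.89%), with a median of 0.69. ERG28 was the highest at 1.99 ± 0.28 and ERG7, lanosterol synthase, the lowest at −1.26 ± 0.20.

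Cell wall genes lay higher, with 18 of 33 tested members higher (54.5%, against 19.5% of all genes), 1 lower and a median of 1.02. The lower gene was GSC2, a glucan synthase subunit, with 223, 236 and 253 CPM of input and 58.4, 52.5 and 54.3 CPM of footprints, at −1.23 ± 0.07 (SE, n = 3 and 3, adjusted p = 4.6e-06). The biosynthetic and cell wall lists reversed with steady-state RNA as the denominator. Their medians were then −0.11 for amino acids, −1.10 for sterols and lipids and −1.86 for the cell wall, and 17 of the 18 cell wall genes called higher were at or below the median gene.

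Histone genes, all 11 tested, held 6 higher (54.5%, against 19.5% of all genes) and none lower. Their median was 1.37, and 1.47 with steady-state RNA. The genes HHT1 and HHT2 encode the same histone H3 and lay at opposite ends of the list. HHT1 had 93.3, 183 and 74.0 CPM of input and 509, 727 and 511 CPM of footprints, at 3.28 ± 0.43 (SE, n = 3 and 3, adjusted p = 3.91e-08). HHT2 had 2257, 1801 and 1433 CPM of input and 580, 664 and 498 CPM of footprints, at −0.77 ± 0.22, not called. In both genes 73.4% of windows were found at that place alone, so reads of the shared parts may have been assigned to either. The 5 histone genes with at least 90% of windows found at that place alone had a median of 0.76.

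Of the lists with at least 10 tested members, those with a median below the median gene were DNA repair, autophagy, the cell cycle and the transcription machinery, besides ribosome biogenesis and the leader-controlled mRNAs. DNA repair had the lowest of these medians, −0.92, with 17 of 46 tested genes lower (37.0%, against 15.7% of all genes) and 1 higher. RAD57, of the recombination pathway, had 58.5 to 66.4 CPM of input and 4.84, 8.11 and 6.99 CPM of footprints, at −2.38 ± 0.22 (SE, n = 3 and 3, adjusted p = 9.09e-08). MMS2, a ubiquitin-conjugating protein of the bypass pathway, was the gene called higher, at 1.17 ± 0.33. A further 11 of the 57 listed genes had too few footprints to be tested, so the tested members are those with more footprints.

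Of 32 tested cyclin and cell cycle kinase genes 1 was higher and 4 were lower (12.5%, near the 15.7% of all genes), with a median of −0.29. WHI5, the inhibitor of G1 transcription, had 3.47, 4.09 and 2.35 CPM of input and 22.6, 19.8 and 13.1 CPM of footprints, at 3.36 ± 0.33 (SE, n = 3 and 3, adjusted p = 1.43e-08). ESP1, separase, had 176, 141 and 156 CPM of input and 19.9, 16.1 and 12.0 CPM of footprints, at −2.44 ± 0.23 (SE, n = 3 and 3, adjusted p = 1.72e-08). WHI5 and ESP1 kept their signs with steady-state RNA, at 1.66 and −3.15.

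Of 52 tested genes of TFIID, Mediator and the SPT group 9 were higher and 9 lower (17.3% each, near the 19.5% and 15.7% of all genes), with a median of −0.19. NUT2, a Mediator subunit, was the highest at 2.85 ± 0.14 and TAF13, a TFIID subunit, the lowest at −1.98 ± 0.17. With steady-state RNA TAF13 was at 0.60, and the medians were 0.34 for the transcription machinery, 0.19 for the cell cycle and 0.33 for DNA repair, so that these 3 lists lay below the median gene with input RNA alone.

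Autophagy and meiosis genes mostly could not be placed, because few had enough footprints. Of 32 autophagy genes 12 had under 50 footprint counts with enough input and 2 were under in both, and among the 18 tested 2 were higher (11.1%) and 5 lower (27.8%). ATG26, a sterol glucosyltransferase, was at −2.39 ± 0.26, and ATG41 at 3.75 ± 0.19 but at −0.62 with steady-state RNA. Of 52 meiosis and sporulation genes 28 had too few footprints, 16 too few of both and 2 too few in input, which left 6. Of these SPO24 was at 1.61 ± 0.21 and SPO14, a phospholipase D, at −2.10 ± 0.13 (SE, n = 3 and 3). Nuclear pore genes were spread evenly, with 5 of 31 higher (16.1%), 4 lower (12.9%) and a median of 0.05. These shares were near the 19.5% and 15.7% of all genes. Values of nuclear pore genes ran from ASM4 at 2.44 ± 0.22 to NUP170 at −1.29 ± 0.13.

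**Figure D3:**
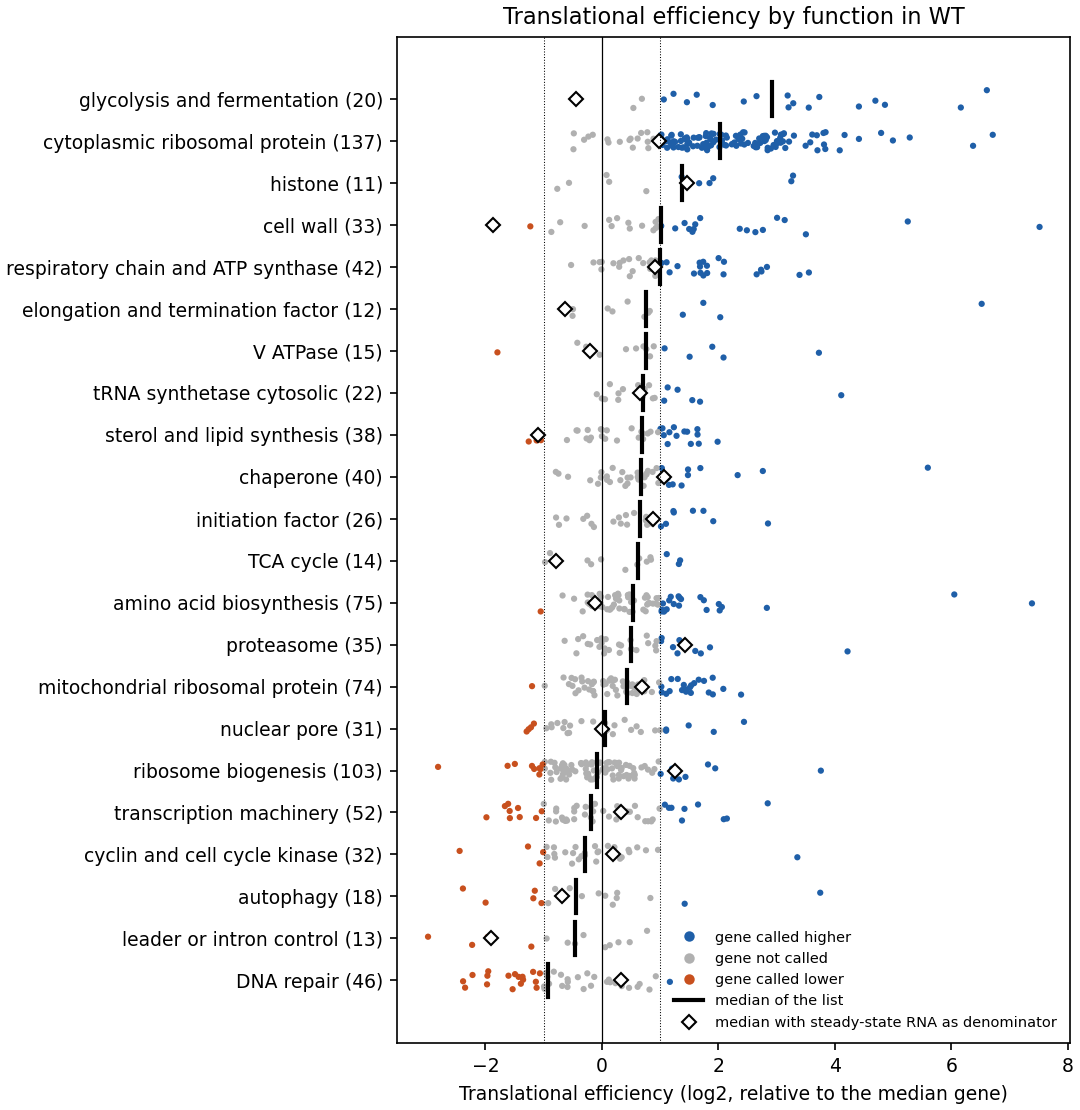
Translational efficiency (log2, relative to the median gene) of each tested gene, by list (lists with at least 10 tested members), with the number tested in parentheses and the lists in the order of their medians. Points are genes called higher (blue), lower (orange) or not called (grey), bars are medians with input RNA, and open diamonds are medians with steady-state RNA. The bars run from −0.92 (DNA repair) to 2.92 (glycolysis), and the diamonds of glycolysis (−0.45), cell wall (−1.86) and sterol genes (−1.10) lie on the other side of 0.

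Among mRNAs known for control by an upstream frame or an intron, HAC1, GCN4, PPR1 and HOL1 were called lower. Of 14 listed genes 13 were tested, 4 were lower (30.8%, against 15.7% of all genes), none was higher and 9 were not called, with a median of −0.46. HAC1, the activator of the unfolded protein response, whose unspliced mRNA is held back by its intron, had 521, 1036 and 1003 CPM of input and 70.2, 50.1 and 50.0 CPM of footprints. Its translational efficiency was −2.99 ± 0.36 (SE, n = 3 and 3, adjusted p = 1.5e-08). GCN4 had 444, 491 and 634 CPM of input and 69.8, 54.8 and 56.8 CPM of footprints, with no overlap between the kinds. It was at −2.23 ± 0.19 (SE, n = 3 and 3, adjusted p = 2.74e-08).

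PPR1, the activator of pyrimidine genes, at −1.96 ± 0.26, and HOL1, a transporter regulated by polyamines, at −1.21 ± 0.23, were the other genes called. The remaining values were −0.95 for the G1 cyclin CLN3, −0.59 for INO2, −0.46 for CAD1, −0.32 for YAP1, 0.06 for SCH9, 0.14 for LEU4, 0.28 for CPA1, 0.48 for SCO1 and 0.78 for CBS1. CLN3, at 111, 106 and 83.9 CPM of input and 28.2, 25.8 and 30.3 CPM of footprints, passed the adjusted p but missed the fold (SE 0.14, adjusted p = 0.000192). PET111 had 26, 27 and 34 footprint counts and was not tested. Against steady-state RNA HAC1, GCN4, PPR1 and HOL1 were at −4.35, −4.32, −1.91 and −2.69, and CLN3 at −4.46.

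YOR302W, which was chosen after its values were seen, is a frame of 78 bases on chromosome XV (882765 to 882842, plus strand) annotated upstream of CPA1 (882899 to 884134, plus strand), the small subunit of carbamoyl phosphate synthetase of the arginine path. It had 2.76, 2.17 and 1.07 CPM of input, from 85, 62 and 16 counts, and 14.5, 17.6 and 14.7 CPM of footprints. Its translational efficiency was 3.92 ± 0.41 (SE, n = 3 and 3) and was 2.91 with steady-state RNA. CPA1 itself had 103, 109 and 71.8 CPM of input and 71.0, 58.4 and 56.6 CPM of footprints, at 0.28 ± 0.21.

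The marker genes for which W303 carries known mutant alleles were also listed, although a ratio of footprints to RNA does not identify an allele. CAN1, the arginine permease, had 103, 102 and 66.8 CPM of input and 8.71, 8.11 and 7.49 CPM of footprints, and was lower at −2.57 ± 0.22 (SE, n = 3 and 3, adjusted p = 2.6e-08). TRP1 had 16, 17 and 18 footprint counts and ADE2 had 26, 29 and 45, with 297 and 862 mean input counts, so neither was tested. URA3, LEU2 and HIS3 were at −0.31, −0.29 and 0.31 and were not called. URA3 stood at 246, 162 and 253 CPM in the input libraries but at 12.5 and 9.88 CPM in the steady-state libraries, and LEU2 at 86.1, 96.6 and 117 CPM against 184 and 195 CPM. Of the 28 genes of the mitochondrial genome 3 were tested, and COX3, a cytochrome c oxidase subunit made by mitochondrial ribosomes, had 97.8, 132 and 181 CPM of input and 15.1, 16.0 and 8.23 CPM of footprints, at −2.52 ± 0.40. With steady-state RNA COX3 was at −6.83. The footprints came from the monosome fraction of cells treated with cycloheximide, which does not stop mitochondrial ribosomes. Whether this bears on the values of these genes was not tested.

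The count minimum removed far more genes for few footprints than for few input counts, and the footprint libraries were the smaller ones. Under 50 mean footprint counts with at least 50 input counts were 835 genes, of which 754 are protein-coding in RefSeq. In the opposite case were 45 genes, and 1090 were under 50 in both. The 835 genes had medians of 260 input and 13.3 footprint counts, against 2358 and 340 in the members. Many had little input as well, so not all of them need lie at the low end of translational efficiency. CSS3 lay just inside the minimum with a mean of 50.0 footprint counts and SSH4 just outside with 49.7. Some genes outside it had extreme values, and those named here were chosen after their values were seen. TRK2, the lesser potassium transporter, had 2891, 2944 and 2028 input counts and 3 footprint counts in each library, and YMR182W-A had 6340, 6545 and 2028 input counts and none, which allows up to 3 counts for counting error. At the other end NOP58, a core protein of the box C/D particles, had 2, 0 and 0 input counts and 3375, 5958 and 7107 footprint counts, and NMD5, an importin, had none in input and 363, 451 and 603 footprint counts. The 2 steady-state libraries held 127 and 152 CPM of NOP58 and 111 and 121 CPM of NMD5, and they listed YMR182W-A at 0. Genes near 0 in the profiling input can therefore have RNA in WT cells.

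Coding length went more closely with translational efficiency than codon usage, GC content, input level or shared sequence did. Across 4642 genes with RefSeq coordinates the Spearman correlation was −0.55, and −0.53 without the ribosomal protein genes, as a description over genes that share libraries. The median was lower in each longer class, from 1.42 in 147 genes of up to 300 bases to −1.29 in 233 genes over 3600 bases. Of the shortest class 59.9% were higher and 2.04% lower, and of the longest 0.429% were higher and 63.5% lower, against 19.5% and 15.7% over all genes. In the top 10% of genes by translational efficiency the median coding length was 573 bases, in the bottom 10% it was 2430 and in all 1290. Steady-state RNA as the denominator gave a correlation of −0.37, and its class medians ran from 1.58 to −1.19, as the plot by coding length shows. The length classes kept their order with either RNA. The gene lists differ in coding length, with a median of 432 bases for ribosomal protein and 2083.5 for DNA repair genes. Their shares and medians were not adjusted for it.

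**Figure D4:**
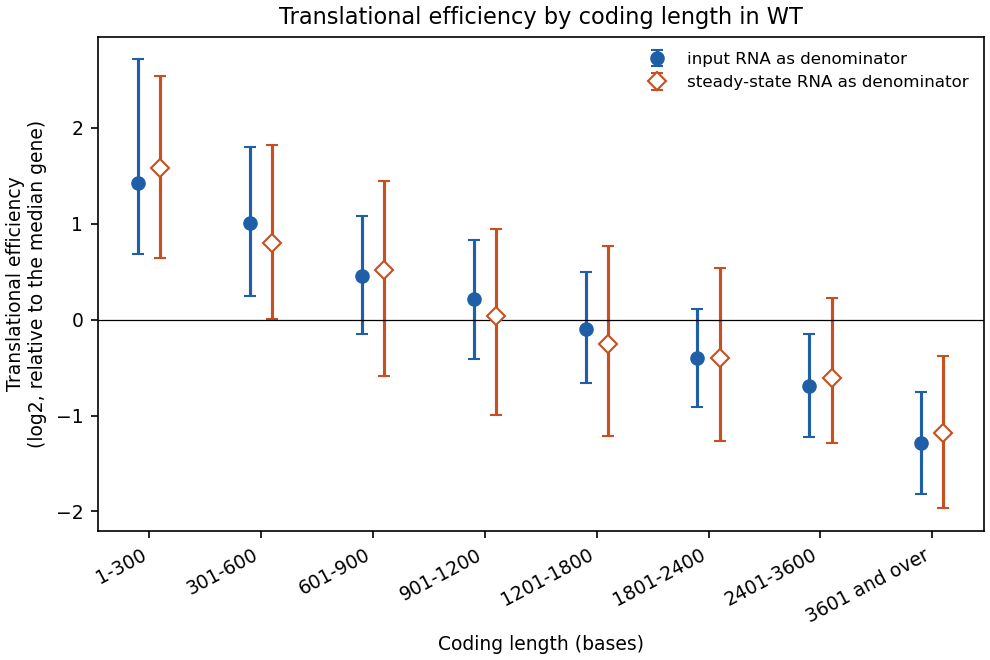
Median translational efficiency (log2, relative to the median gene) by class of coding length in bases, with bars from the lower to the upper quartile of genes, for input RNA (blue circles) and steady-state RNA (open orange diamonds) as the denominator. Both series fall from the shortest class (1.42 and 1.58) to the longest (−1.29 and −1.19), and the quartiles are wider with steady-state RNA.

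Bases around the start codon differed between the ends of the range. A at −3 was found in 76.3% of the top 10%, 48.7% of the bottom 10% and 62.8% of all genes. Genes with A there had a median of 0.14, against −0.09 for G, −0.30 for T and −0.34 for C. An ATG in the 50 bases before the start codon, in any frame and on the coding strand, was found in 8.62% of the top 10%, 26.5% of the bottom 10% and 15.7% of all genes, and the 727 genes with it had a median of −0.30 against 0.06 for the others. Of the named genes that were called, HFA1, VMR1, PPR1, STV1, TAF13, RAD57 and ATG26 (lower) and MMS2 (higher) held such an ATG. GCN4, whose upstream frames lie farther away, did not. These genes were named by their ratios or from the leader list, so they add no support to the shares above.

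Codon usage like that of ribosomal protein genes, measured as an index from 0 to 1, had a median of 0.304 in the top 10%, 0.182 in the bottom 10% and 0.198 in all genes. Its correlation with translational efficiency was 0.34 with input RNA and 0.11 with steady-state RNA. Without the ribosomal protein genes, from which the index was made, the correlation with input RNA was 0.30. The medians of the index were not taken without them. Genes with introns were 18.1% of the top 10%, 1.29% of the bottom 10% and 4.89% of all. Cytoplasmic ribosomal protein genes were 92 of the 464 genes in the top 10% and 137 of all 4642. The intron share was not taken without the ribosomal protein genes. Genes with under 90% of windows found at a sole place were 14.2% of the top 10%, 0.431% of the bottom 10% and 3.17% of all.

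The order of genes was much the same in the deletion strains. Across the 4643 genes the Spearman correlation of WT with def1Δ was 0.955 and with the libraries labelled dhh1Δ, whose footprints are 1 sample, 0.963. Of the 904 genes higher in WT, 764 were more than 2-fold above the median gene in def1Δ and 821 in dhh1Δ, and of the 729 lower, 547 and 610 were more than 2-fold below. List medians in def1Δ and dhh1Δ were 1.89 and 2.24 for ribosomal proteins, 2.84 and 2.89 for glycolysis and −0.62 and −0.81 for DNA repair.

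In the fit of def1Δ against WT, translational efficiency was higher in 0 genes (0% of those tested) and lower in 1 (0.0215%), while 311 genes had an unadjusted p under 0.05 by edgeR and DESeq2 called 10 higher and 4 lower. In 99.0% of genes the strains differed by no more than 2-fold. The gene called was TDH1, the minor form of glyceraldehyde-3-phosphate dehydrogenase. It had 20.0, 42.7 and 23.0 CPM of input in WT and 430, 500 and 416 CPM in def1Δ, with no overlap, and footprints of 1365 to 1476 CPM in WT and 2995, 3215 and 4317 CPM in def1Δ. Its translational efficiency was 6.61 in WT, 3.76 in def1Δ and 3.92 in dhh1Δ, a difference between def1Δ and WT of −2.85 (edgeR, adjusted p = 0.00339). The WT value rests on the low WT input: in WT steady-state RNA TDH1 stood at 321 and 1212 CPM, which gave 0.72. No gene was called with the replicate number as a block, nor with TMM scaling. The call was also lost when input library 1 or 3 or any footprint library of WT, or input library 2 or footprint library 1 or 2 of def1Δ, was left out.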

How the data were processed

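The authors deposited whole counts per gene for 3 input RNA and 3 footprint columns of each strain, and RSEM estimated counts per gene for steady-state RNA, with no normalization. Tools named in the submitters' processing notes are FastQC, HISAT2, featureCounts, STAR, RSEM 1.2.28 and DESeq2, with build R64. Which made the profiling tables, and their settings for strand, overlapping genes and reads with several places, is not given in the sources used here, so reads of overlapping or antisense genes may not be told apart. The footprint samples are labelled as sequencing runs and the columns as replicates, so columns were used as 3 replicates of the strain. Labeled RNA was not used here.

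Members and gene lists were chosen with earlier results of these data known. Lists were written from textbook knowledge, and genes named are the 10 highest and 10 lowest called nuclear protein-coding genes whose libraries do not overlap, the highest and lowest member of each list, and all tested members of the leader and marker lists. A list of small noncoding RNAs matched no row.

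Tests used edgeR 4.0.16 in R 4.3.3 (quasi-likelihood, Benjamini-Hochberg adjustment), with footprint library sizes scaled so that the median gene is 0, which takes the median log2 ratio of −0.88 off each gene, and were tested on simulated data. The SE is that of the difference of 2 means over libraries. Estimated counts entered only as a denominator for values. Same-numbered WT libraries deviated together from the mean of their kind (correlations 0.233, 0.259 and 0.376). The correlations in def1Δ were weaker (0.107, 0.089 and 0.089), with up to 0.087 between other numbers. Deviations from a mean of 3 libraries depend on one another, and the labels state no pairing, so whether the numbers pair the libraries is unclear. The main fit and the SE do not pair libraries by number, while the replicate block does. Replicates differed by far more than sampling noise. RefSeq R64 matched 4642 of the 4643 genes. Python 3.11.15, numpy 2.4.6, pandas 2.3.3, scipy 1.17.1 and matplotlib 3.10.9 were used for the rest. Alternatives covered scaling, DESeq2 1.42.0, count minimum, genes tested, cutoffs, each library left out, a replicate block and the denominator.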

Additional observations from a re-analysis of the deposited data

Results flagged for a closer look

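TDH1 stood apart because its translational efficiency differed between strains by a test of the difference itself: it was 2.85 lower on the log2 scale in def1Δ than in WT (value −2.85, edgeR interaction of strain and kind of library, adjusted p = 0.00339, n = 3 and 3 libraries per strain). The call was not made with the replicate block, which called 0 genes, nor with TMM scaling, which also called 0, and it was lost when any one of the WT footprint libraries, or any one of 5 other libraries, was left out. Input RNA of TDH1 was higher in all 3 def1Δ libraries than in all 3 WT libraries, and so were its footprints. In WT steady-state RNA TDH1 stood at 321 and 1212 CPM, a mean 26.8-fold that of the WT input. With that denominator its WT value was 0.72 rather than 6.61, and the strain difference was not tested that way. In 71.2% of the 28-base windows of its coding sequence the sequence occurs nowhere else in the genome, and TDH2 and TDH3 are its close copies. The part of shared sequence in this difference was not tested.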

How the results depend on the processing

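In WT, 904 genes were higher and 729 lower. The counts were 828 and 795 with TMM scaling, 901 and 727 with DESeq2, 564 and 438 with a count minimum of 200, and 1565 and 1502 with an adjusted p under 0.05 and no fold cutoff. With the replicate block they were 906 and 730, and they held all of the 904 and 729. Leaving out a library gave 862 to 947 higher and 704 to 782 lower. No gene was called in opposite directions under any of these.
For def1Δ against WT, 1 gene was called, against 0 with TMM scaling, 14 with DESeq2, 0 with the replicate block, 2 with an adjusted p under 0.05 and no fold cutoff, and 0 to 1 without a library.
Steady-state RNA as the denominator turned CCW12 (−2.24), SNU13 (−0.76), SRL1 (−3.52), TDH3 (−1.75), HIS1 (−0.046), NOP10 (−1.45), GRS1 (−0.26), CPR1 (−0.75), ATG41 (−0.62), ERG28 (−0.81), RSM22 (0.29) and TAF13 (0.60). It also turned the medians of glycolysis (−0.45), elongation and termination factors (−0.63), amino acid biosynthesis (−0.11), the TCA cycle (−0.79), the vacuolar ATPase (−0.21), the cell cycle (0.19), the transcription machinery (0.34), DNA repair (0.33), sterols and lipids (−1.10) and the cell wall (−1.86). The cause was not tested. No other alternative turned a called named gene, or a list median larger than its spread over libraries. Genes with few input counts limit the high end, and the minimum of 50 footprint counts the low end.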
